A study of Mus musculus with 8 samples.

Results

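The 7 genes described here encode transcription factors that specify and maintain the insulin-secreting beta cell. Pdx1, Nkx6-1, Nkx2-2, Isl1, Pax6 and Mnx1 encode homeodomain proteins, and Mafa encodes a basic leucine zipper (bZIP) protein. The genes were given by name, and their peaks were taken by position. A peak belonged to a gene when its centre lay inside the gene's RefSeq span in the mouse genome (mm10) or within 50 kb of it. Of 21887 protein-coding genes these are 7, and of 137716 peaks in 6 lists 114 lay near them. The study measured chromatin immunoprecipitation with sequencing (ChIP-seq) in Beta-TC6 cells, a mouse insulinoma line derived from a tumour that arose under a viral oncogene driven by an insulin promoter, so it is a dividing tumour line of beta-cell origin and not islet tissue. The cells carried no other genetic change or treatment in the labels and were harvested at confluence. There was 1 library for each of 6 targets, namely the clock activators BMAL1 and CLOCK, the beta-cell factor PDX1, the histone marks H3K4me2 and H3K27ac, and the histone variant H2A.Z. Each peak list was called against 1 of 2 input libraries, and with 1 library per target no test between targets or genes was possible.

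These factors work as a network. PDX1 starts pancreas development and in the adult beta cell activates the insulin genes together with MAFA, whose appearance marks mature beta cells, and NEUROD1. NKX6-1 and NKX2-2 hold the beta-cell identity against other islet fates, ISL1 and PAX6 act in all islet endocrine lineages, and MNX1 acts both early in pancreas formation and later in beta cells. H3K27ac marks active enhancers and promoters, H3K4me2 marks enhancers and promoters more widely, and H2A.Z is a histone variant found at many promoters and enhancers. BMAL1 and CLOCK bind as a pair to the E-box CACGTG, and many homeodomain proteins, though not all, bind sites with the core TAAT.

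Promoters of 4 genes show what was and was not occupied, and each is given as the 250 bases before the start of transcription (RefSeq, build GRCm38.p6, the assembly that mm10 numbers). Those of Pdx1 and Nkx2-2 are shown for the E-box, the internal promoter of Pax6 because it lay inside the widest acetylated interval of the list, and that of Mnx1 because its gene had the least H3K27ac of the 7. The Nkx2-2 window, before the only start listed for that gene, also lay inside the gene span (chr2:147176485-147195434). Capitals mark CACGTG and TAAT, both strands being searched, and none of these matches overlapped another.
Pdx1, chr5:147269847-147270096, plus strand: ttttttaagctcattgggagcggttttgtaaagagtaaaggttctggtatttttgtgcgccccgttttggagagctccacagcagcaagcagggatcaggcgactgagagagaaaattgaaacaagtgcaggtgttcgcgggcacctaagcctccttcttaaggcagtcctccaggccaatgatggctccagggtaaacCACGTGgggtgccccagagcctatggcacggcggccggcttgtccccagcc
Nkx2-2, chr2:147186403-147186652, minus strand: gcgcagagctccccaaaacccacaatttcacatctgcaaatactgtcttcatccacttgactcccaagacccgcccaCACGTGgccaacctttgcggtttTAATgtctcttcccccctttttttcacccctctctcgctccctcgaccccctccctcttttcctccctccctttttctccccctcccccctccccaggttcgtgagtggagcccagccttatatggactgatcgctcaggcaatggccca
Pax6 internal promoter, chr2:105682213-105682462, plus strand: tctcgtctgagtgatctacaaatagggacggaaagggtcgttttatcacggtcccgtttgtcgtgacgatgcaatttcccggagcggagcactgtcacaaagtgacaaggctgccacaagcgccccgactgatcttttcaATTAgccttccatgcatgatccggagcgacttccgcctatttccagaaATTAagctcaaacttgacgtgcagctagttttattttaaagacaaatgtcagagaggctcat
Mnx1, chr5:29478471-29478720, minus strand: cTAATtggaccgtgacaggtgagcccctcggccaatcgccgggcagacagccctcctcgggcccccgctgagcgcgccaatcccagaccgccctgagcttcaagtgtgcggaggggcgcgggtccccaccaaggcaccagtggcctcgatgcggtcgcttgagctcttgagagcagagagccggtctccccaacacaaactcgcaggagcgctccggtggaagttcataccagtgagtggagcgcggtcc
The promoters of Pdx1 and Nkx2-2 held 1 CACGTG each, its first base 51 bp before the start of Pdx1 and 173 bp before that of Nkx2-2. The windows of Nkx6-1, Isl1, Mnx1 and both Pax6 starts held 0. Of 32851 promoters of this length in the table, 6.02% held CACGTG. The core TAAT occurred in 54.9% of them. It occurred 2 times in the Pax6 window shown, 1 time in the Nkx2-2 window, 1 time in the Mnx1 window and 0 times in the Pdx1 window. In the windows not shown it occurred 2 times at Isl1, 2 times at the first Pax6 start and 0 times at Nkx6-1. No BMAL1, CLOCK or PDX1 peak overlapped any of the 4 windows shown, and H3K4me2 and H3K27ac intervals overlapped all 4. The same held for the windows not shown, except that Nkx6-1 lay outside H3K4me2. No share over all promoters was taken, so these overlaps do not set the genes apart. A match to these letters is a description of the sequence and not a bound site. The table held 7 start sites for 6 of the genes and was not matched for Mafa.

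The lists held 1378 CLOCK and 4125 BMAL1 peaks at fixed widths of 204 and 330 bp, 34883 PDX1 peaks of 234 bp, and 41140 H3K4me2, 29735 H3K27ac and 26455 H2A.Z intervals of variable width. Libraries had from 12892080 to 26678241 tags, and between 0.16% (CLOCK) and 37.2% (H3K27ac) of the tags lay in peaks. Levels are given as HOMER's normalized tag count, the tags of a peak scaled to a library of 10000000 tags. Its rank is the place of a peak in its own list, 1 being the peak with most tags, and ranks of different lists cannot be compared. H3K27ac overlapped the span of all 6 beta-cell marker genes examined (Ins1, Ins2, Iapp, Slc2a2, Ucn3 and G6pc2), with summed counts from 35.7 at Ucn3 to 3217.4 at Iapp. It overlapped 2 of 3 alpha-cell markers (Gcg at 55.8 and Irx2 at 138.5) and 0 of 2 delta-cell, 0 of 1 PP-cell, 0 of 4 acinar and 0 of 2 ductal markers, against 47.7% of all protein-coding genes. These are chromatin marks and not expression levels.

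**Figure D1:**
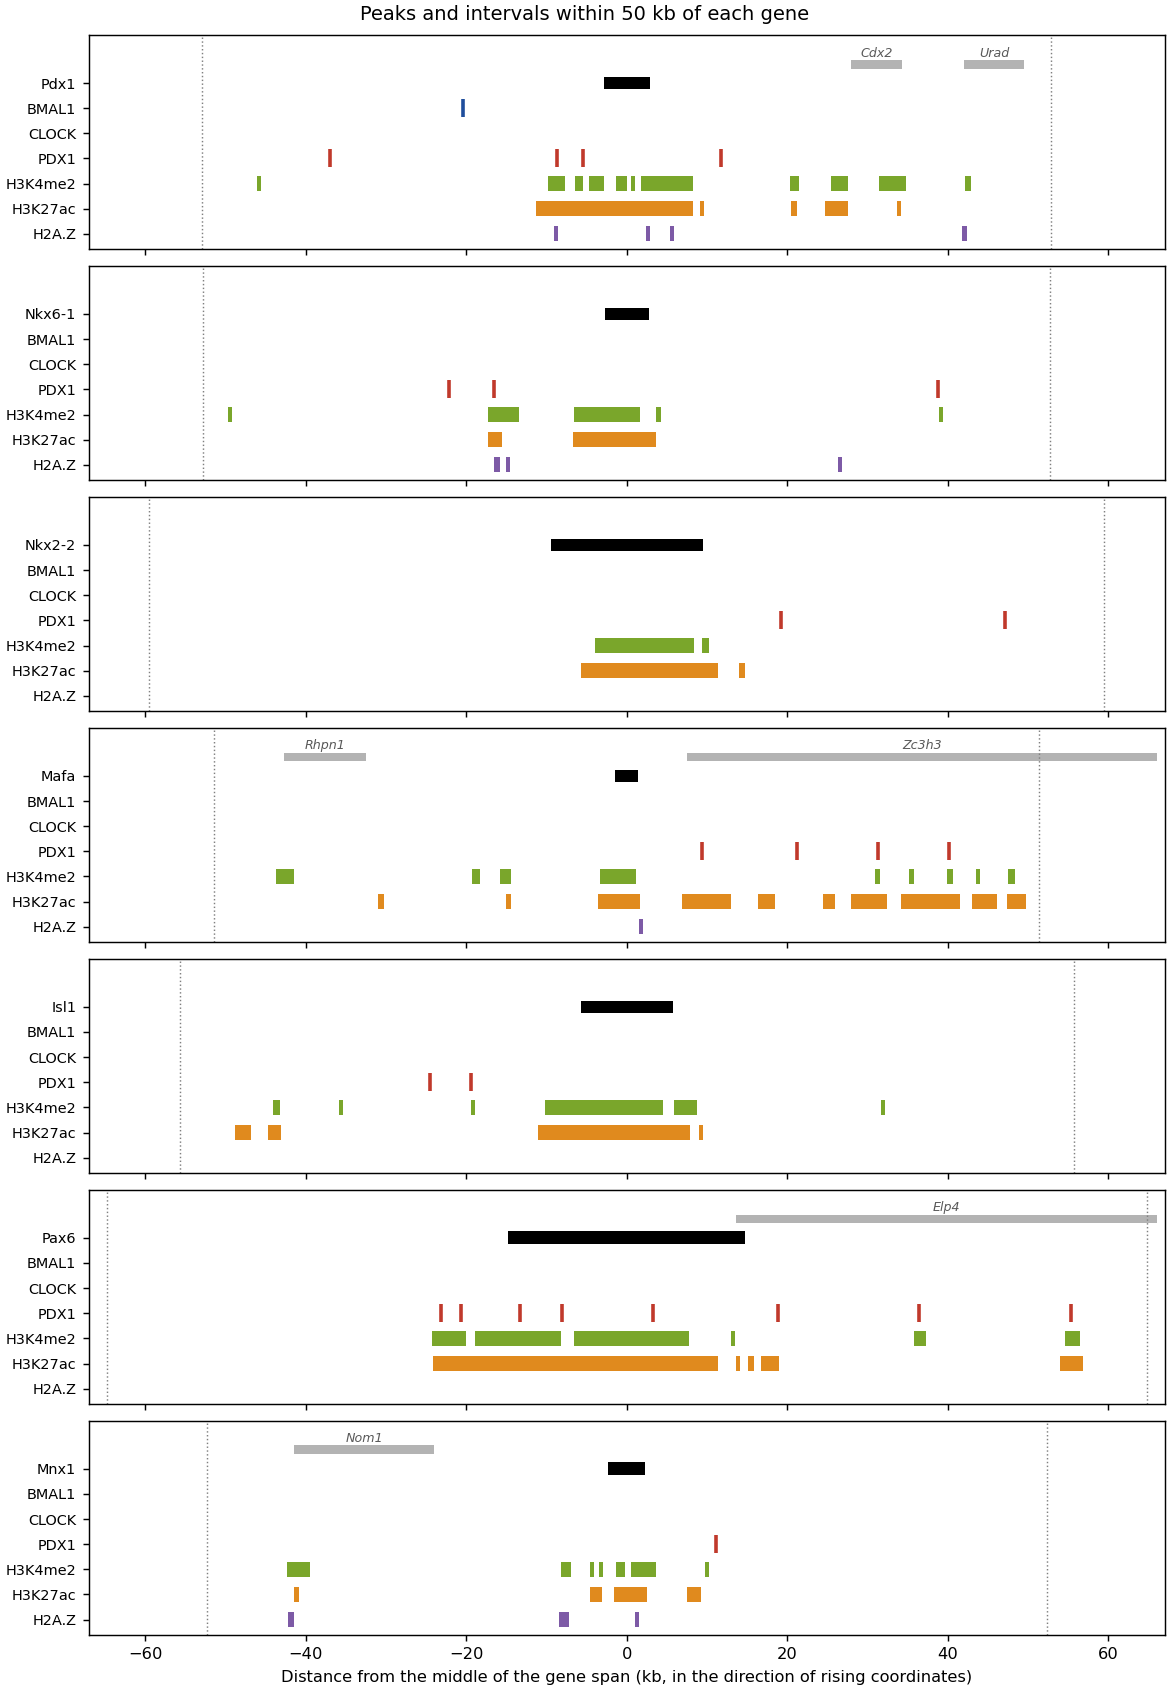
Peaks and intervals of the 6 targets around each of the 7 genes, plotted by distance in kb from the middle of the gene span in the direction of rising coordinates. The black bar is the gene, grey bars are neighbouring genes cut at the plot edge, dotted lines mark the 50 kb limit, ticks mark the centres of factor peaks (not drawn to width) and coloured bars show the mark intervals to scale. The H3K27ac interval over Pax6 is the widest at 35416 bp and that over Mnx1 spans 4186 bp, and the CLOCK track is empty at all 7 genes.

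H3K27ac was high at 6 of the 7 genes and lower at Mnx1. All 7 genes had an interval within 50 kb, as did 73.0% of all protein-coding genes, so that count alone sets them apart little. By tag count, 6 of the 7 genes had an interval among the top 1% of the list (rank 297 or better), against 2.83% of all protein-coding genes. Mafa was counted through an interval outside its span, centred in the neighbouring gene Zc3h3. The interval over Mafa itself ranked 463, outside the top 1%. The 1% limit was set with the values known and was not tested. The strongest interval at Pdx1 had 5857 normalized tags and ranked 2 of 29735. That at Pax6 had 4964.2 and ranked 4. Isl1 followed with 3491.4 (rank 12), Nkx2-2 with 2681.3 (rank 21) and Nkx6-1 with 2411.0 (rank 31). Mafa had 1379.7 (rank 147), and Mnx1 stood apart with 183.2 (rank 5851). The median interval of the list had 49.1. This order rests on tag counts: by the deposited score Mnx1 (rank 5686) stood above Pdx1 and Nkx6-1 (both at 18721), Isl1 (15150) and Nkx2-2 (24198).

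**Figure D2:**
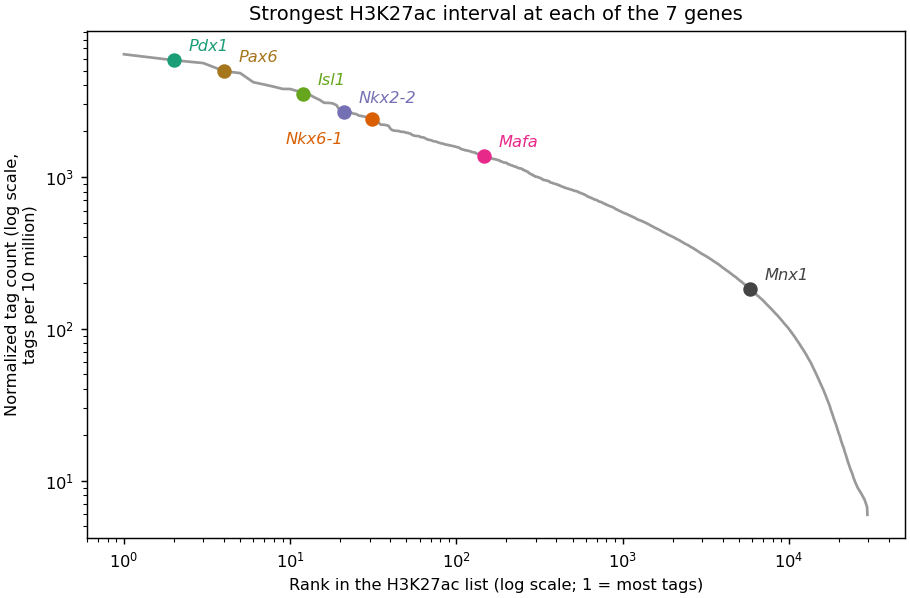
Normalized tag count (log scale) of all 29735 H3K27ac intervals (grey line) against their rank (log scale), with a point for the strongest interval at each of the 7 genes. Pdx1 at rank 2 and Pax6 at rank 4 sit at the top of the curve, while Mnx1, with 183.2 tags at rank 5851, lies below the other 6 and above the list median of 49.1.

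These intervals were wide as well as strong. The Pax6 interval, at 35416 bp, was the widest of the whole list, and those of Pdx1 (19620 bp), Isl1 (18974 bp) and Nkx2-2 (17090 bp) ranked 6, 8 and 11 by width. A tag count rises with width, so the tags per kb of interval were set beside it. Pdx1 had 299 normalized tags per kb (rank 56), Nkx6-1 had 234 (rank 261) and Mafa had 224 (rank 342). Isl1 had 184 (rank 857), Nkx2-2 had 157 (rank 1518) and Pax6 had 140 (rank 2118). The median of all intervals was 40.6 tags per kb and the 95th percentile 158. Per kb, therefore, Pax6 and Nkx2-2 lay just below that percentile, and Mnx1, with 43.8 (rank 13986), lay near the median. Over the whole window of each gene and per window length, the H3K27ac tags placed Pdx1 at rank 5, Pax6 at 18, Mafa at 24, Isl1 at 36, Nkx6-1 at 133 and Nkx2-2 at 164 of 21887 genes, and Mnx1 at 6426.

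H3K4me2 placed the genes in another order. All 7 genes had an interval, as did 81.2% of protein-coding genes, and 5 of the 7 had one in the top 1% (rank 411 or better), against 4.67% of protein-coding genes. The highest was the interval over Isl1, with 878.6 normalized tags and rank 3 of 41140. Pax6 had 588.1 (rank 10), Nkx2-2 451.7 (rank 39), Pdx1 397.3 (rank 67) and Nkx6-1 387.6 (rank 73). Mnx1 had 245.5 (rank 487) and Mafa 187.0 (rank 1253), so the gene with the least H3K27ac was not the one with the least H3K4me2. This order also rests on tag counts, which rise with width. Per kb of these intervals Mnx1 was highest (79.7), followed by Pdx1 (61.8) and Isl1 (59.9), and Nkx2-2 was lowest (36.8). Summed over the window, Nkx2-2 had the fewest tags (486.9), against 525.1 at Mnx1 and 553.9 at Mafa.

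H2A.Z varied among the genes. It had a peak near 4 of the 7, against 72.7% of all protein-coding genes, and with 7 genes a count of 4 is close to what this share gives. Per window length, Mnx1 was at the 90.6th percentile of protein-coding genes for H2A.Z, Pdx1 at the 75.7th, Nkx6-1 at the 68.9th and Mafa at the 35.8th. Mnx1 had the most in its window, with intervals of 27, 17.3 and 11.9 normalized tags. Only that of 11.9 was centred inside the gene, and that of 17.3 was nearest to Nom1. Pdx1 had 4 intervals between 7.02 and 10.3, the highest centred inside the neighbouring gene Urad. Nkx6-1 had 3 between 6.48 and 13, and Mafa had 1 of 7.56. Nkx2-2, Isl1 and Pax6 had 0, although Isl1 and Pax6 carried some of the strongest H3K4me2 intervals. The tag threshold of the H2A.Z list was 14, which was also the lowest deposited score among these intervals. It was not a floor on the normalized count, which went down to 5.4 in the list. A level too low to be called was not detectable.

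PDX1 peaks lay near all 7 genes, against 58.1% of all protein-coding genes, and numbered 24. They ranged from 6.64 to 81.8 normalized tags with a median of 10.7, against a median of 9.2 over the list, and 7 of the 24 ranked within the top 5% (rank 1744 or better). A peak of the top 1% (rank 348 or better) lay near 2 of the 7 genes, Nkx2-2 and Mafa, against 1.67% of all protein-coding genes. This count depends on the limit: the Mafa peak was at rank 345, and the best Nkx6-1 peak, at 417, fell outside. The Mafa peak was also centred inside the neighbouring gene Zc3h3. H3K27ac overlapped 13 of the 24 (54.2%, Wilson 95% interval 35.1 to 72.1), against 21.1% of all PDX1 peaks (20.7 to 21.6). H3K4me2 overlapped 12 of the 24 (50.0%, 31.4 to 68.6), against 23.6% of all (23.2 to 24.1). The sets are unlike: the list was taken whole, at any distance from a gene, while the 24 lay near genes by rule. Both marks were present at 10 of the peaks and neither at 9, counts for which no share over all PDX1 peaks was taken. The intervals cover counting error only. Peaks of 1 gene share a locus and 5 of the 13 lay in the Pax6 interval, so the 24 are not independent. Of the 24, 3 were centred inside the span of one of the 7 genes, all in Pax6. Within 1 kb of an annotated start of these genes lay 0, the closest being 1476 bp from that of Pax6. The 4 Mafa peaks had no annotated start to measure from. For these counts, too, no share over all PDX1 peaks was taken.

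**Figure D3:**
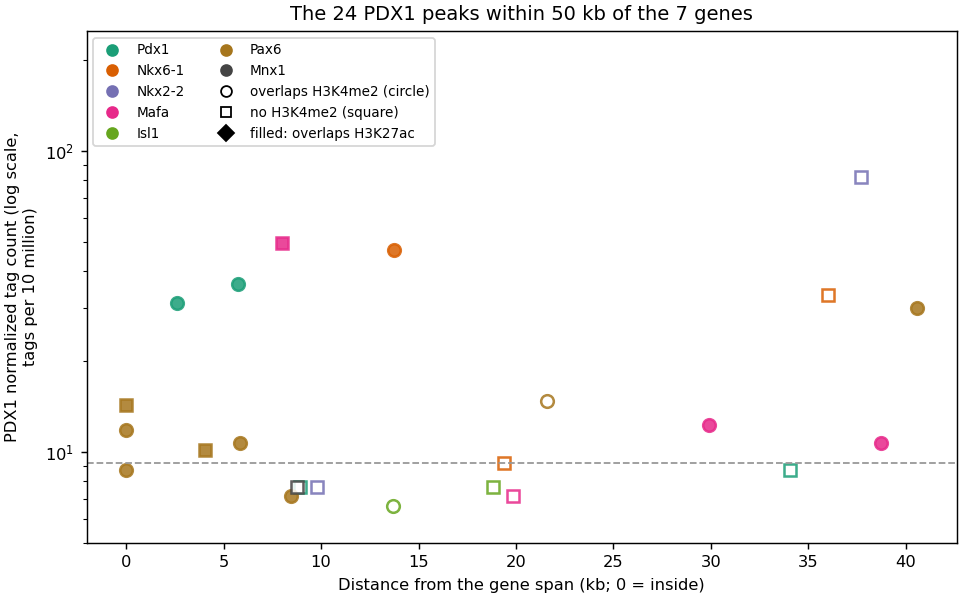
Normalized tag count (log scale) of the 24 PDX1 peaks against distance in kb from the gene span, coloured by gene, with filled symbols in H3K27ac, circles in H3K4me2 and squares outside H3K4me2. The dashed line is the list median of 9.2, and the highest point, at Nkx2-2 (81.8), is unfilled and square. Symbols of Mnx1, Pdx1 and Nkx2-2 overlap near 9 kb, all at 7.67.

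Pdx1 itself (chr5:147270097-147275848, plus strand) lay wholly inside its H3K27ac interval (chr5:147261608-147281228, 28.2 times the input). Of its 4 PDX1 peaks 2 fell in that interval, both upstream of the start, on the side where the conserved enhancers of the gene are known. The first had 36.3 normalized tags (chr5:147264224-147264458, 5756 bp upstream, rank 882 of 34883) and overlapped H3K4me2 and H2A.Z. The second had 31.2 (chr5:147267397-147267631, 2583 bp upstream, rank 1348) and overlapped H3K4me2. Their fold over input was 4.27 and 5.5, close to the 4-fold minimum of the peak caller, although both were high in tags; the median fold of all PDX1 peaks was 11.5. The other 2 PDX1 peaks had 8.69 and 7.67 tags and lay outside both marks. H3K4me2 was divided into 6 intervals within the acetylated one and covered 67.6% of it, the strongest (397.3) lying over the end of the gene and beyond. Of the 11 H3K4me2 intervals in the window, 6 were nearest to Pdx1. Another, with 282.6 tags, lay at Cdx2, an intestinal homeodomain gene 25052 bp away, and overlapped an H3K27ac interval of 8.94, while one of 300.8 lay between the genes.

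Pax6 (chr2:105668896-105698410, plus strand) had the most PDX1 peaks, 8, the strongest of them at rank 1458 of 34883. Its H3K27ac interval (chr2:105659558-105694974) held both annotated starts and covered 88.4% of the span. It contained 5 PDX1 peaks of 7.15, 10.7, 11.8, 14.3 and 8.69 normalized tags, from 8445 bp upstream of the first start to 4464 bp downstream of the second. The strongest PDX1 peak, 30.2 (85.07 times the input), lay 40576 bp beyond the end of Pax6 inside the span of Elp4, the neighbouring gene known to hold Pax6 enhancers. It overlapped H3K4me2 (50.6) and H3K27ac (144.5). A further peak in Elp4 with 14.8 tags overlapped H3K4me2 (40.1) without H3K27ac, and one with 10.2 overlapped H3K27ac (41.7) without H3K4me2. Peaks in the region where Pax6 and Elp4 overlap cannot be assigned to either gene.

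Isl1 (chr13:116298270-116309688, minus strand) combined strong marks with little PDX1. Its H3K27ac interval (chr13:116292933-116311907) covered the whole span, and 2 H3K4me2 intervals of 878.6 and 151.4 tags covered 88.1% of it. It held 0 PDX1 peaks. The 2 PDX1 peaks of the window had 7.67 and 6.64 tags, 18817 and 13704 bp beyond the end of the gene, and ranked 23358 and 29477 of 34883. The second touched a weak H3K4me2 interval (7.12). Summed over the window and per window length, Isl1 was at the 68.6th percentile of protein-coding genes for PDX1 and at the 99.8th for H3K27ac.

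Nkx2-2 (chr2:147176485-147195434, minus strand, annotated start at 147186402) had its H3K27ac interval around the start (chr2:147180251-147197341), covering 80.1% of the span. It held 2 H3K4me2 intervals and no PDX1 peak. The highest PDX1 peak near any of the 7 genes lay in this window, with 81.8 normalized tags (chr2:147233024-147233258, rank 64, 57.67 times the input). It was 46739 bp upstream of the start, 13163 bp from the nearest H3K27ac interval and 14494 bp from the nearest H3K4me2 interval, and no other protein-coding gene lay within 50 kb of Nkx2-2. The other PDX1 peak, 18827 bp upstream, had 7.67 tags and was also outside the marks.

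Nkx6-1 (chr5:101659184-101664711, minus strand) lay wholly inside its H3K27ac interval (chr5:101655258-101665549), which held no PDX1 peak. Its 250-base promoter window was in H3K27ac but outside H3K4me2, whose nearest intervals, of 387.6 and 34.1 tags, lay to either side. A second site downstream, 13758 bp from the gene, carried PDX1 at 47.0 normalized tags (chr5:101645309-101645543, rank 417, 67.05 times the input). It overlapped H3K4me2 at 272.9 (rank 308), H3K27ac at 127.3 (rank 8236) and H2A.Z at 13. Over the gene itself H3K4me2 was 387.6 (rank 73) and H3K27ac 2411.0 (rank 31). A PDX1 peak of 33.2 (rank 1133), 36024 bp upstream, was nearer to the gene Gm42134 (22364 bp away) than to Nkx6-1. It overlapped neither mark, its edge 40 bp from an H3K4me2 interval of 15.7. The remaining PDX1 peak, of 9.2, lay 19364 bp beyond the end of Nkx6-1 outside both marks.

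Mafa (chr15:75745501-75748321) differed in layout. Its span lay in an H3K27ac interval of 839.2 tags (chr15:75743349-75748550, rank 463) and an H3K4me2 interval of 187.0. The stronger acetylated interval, of 1379.7 tags (chr15:75753742-75759910), lay beyond the gene and reached into the neighbouring gene Zc3h3. It held the highest PDX1 peak of the window, 49.6 (chr15:75756186-75756420, rank 345, 7982 bp from the Mafa span) and overlapped no H3K4me2 interval, the only one of the 7 strongest intervals without any. Further acetylated intervals of 790.0, 339.5 and 253.9 tags lay in Zc3h3, and the first of these held a PDX1 peak of 10.7 and the second one of 12.3. All 4 PDX1 peaks of the window were centred inside Zc3h3, so assigning them to the nearest gene leaves Mafa with 0. Which of the genes the intervals act on was not tested.

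Mnx1 (chr5:29473823-29478470, minus strand) had the weakest H3K27ac of the 7 genes. Its H3K27ac interval (chr5:29474534-29478720) had 183.2 tags, was 4.88 times the input and held 0 PDX1 peaks. H3K4me2 at the start was 245.5 over 3081 bp, which is 79.7 tags per kb, close to the 76.9 per kb of the H3K4me2 interval at the Pdx1 start. An H2A.Z interval of 11.9 overlapped it. The only PDX1 peak, 8751 bp upstream, had 7.67 tags (rank 23358) and overlapped no mark, an H3K4me2 interval lying 689 bp away. Mnx1 was at the 55.6th percentile of genes for PDX1, the 70.6th for H3K27ac, the 91.3rd for H3K4me2 and the 90.6th for H2A.Z.

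BMAL1 and CLOCK had few peaks here. A BMAL1 peak lay near 1 of the 7 genes, against 21.3% of all protein-coding genes, and a CLOCK peak near 0 of 7, against 13.1%. With 7 genes, counts of 0 or 1 are close to what these shares give. The BMAL1 peak was 17529 bp upstream of Pdx1 (chr5:147252403-147252733), with 10.9 normalized tags, a score of 15 next to the threshold of 13 tags, and rank 960 of 4125. It overlapped no PDX1, CLOCK, H3K4me2, H3K27ac or H2A.Z peak. The next BMAL1 peak was 104218 bp from Pdx1, and none of the other 6 genes had one nearer than 126 kb (Nkx6-1). The nearest CLOCK peaks were 154 kb from Pdx1, 157 kb from Mnx1 and 508 kb from Nkx6-1, and for Isl1 3310 kb. None of the 24 PDX1 peaks overlapped BMAL1 or CLOCK, which allows a share of up to 13.8% (Wilson 95% interval), against 0.608% and 0.765% of all PDX1 peaks.

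**Figure D4:**
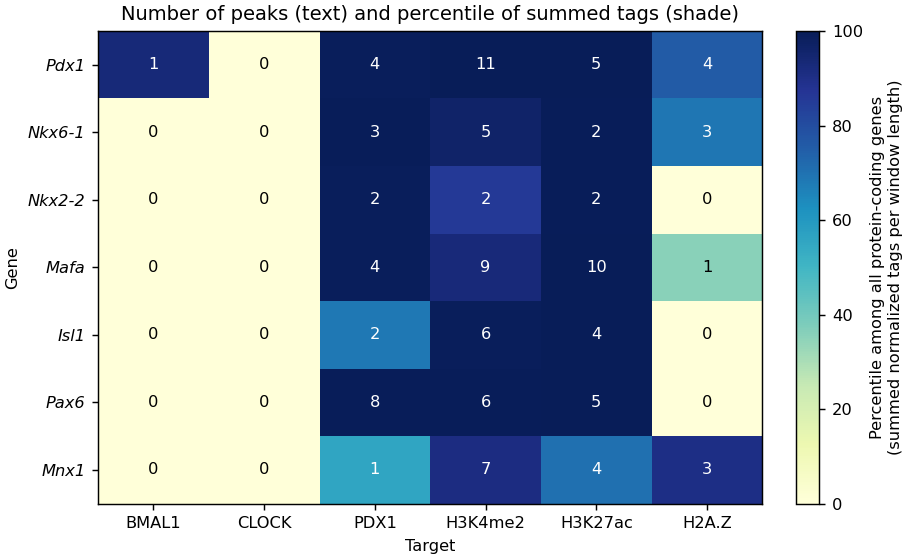
Number of peaks within 50 kb (text) of each gene in each list, and the percentile of the summed normalized tags per window length among 21887 protein-coding genes (shade). The H3K27ac column is dark except at Mnx1 (70.6), the PDX1 column is dark except at Isl1 (68.6) and Mnx1 (55.6), and the CLOCK column is 0 throughout.

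The genes with the most similar pattern were found by the mean absolute difference of their 6 percentiles, 1 per list, from the median of the 7 genes, among genes more than 100 kb from all 7. The 5 closest were Spc25 (0.895 percentile points), G6pc2 (0.975), Nostrin (1.27), Copz2 (1.34) and Neurod1 (1.65). Spc25, G6pc2 and Nostrin are neighbours on chromosome 2 whose windows share peaks, so they stand for 1 locus, that of the islet glucose phosphatase gene G6pc2. Neurod1 encodes a helix-loop-helix activator of insulin. Among the 7 themselves Mafa was closest to the median (0.608), while Mnx1 (22.1) and Pdx1 (22.8) were farthest, Pdx1 through its BMAL1 peak and its H2A.Z.

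Other islet and related transcription factor genes were more mixed. Of 20, 16 had H3K27ac within 50 kb and 13 had PDX1, against 73.0% and 58.1% of protein-coding genes. An H3K27ac interval of the top 1% lay near 4, against 2.83% of protein-coding genes. These 4 were Neurod1 (best rank 27), Myt1 (94), the forkhead gene Foxa2 (175) and St18 (247). The progenitor genes Neurog3 and Sox9, and Foxa1 and Nkx2-1 had 0 H3K27ac tags in their windows. The median H3K27ac percentile of the 20, which counts these genes at 0, was 64.9, against 99.8 for the 7 genes. That difference depends on which genes were listed. Of 12 genes known as targets of these factors, 12 had H3K27ac and 11 had PDX1, against the same 73.0% and 58.1%. An H3K27ac interval of the top 1% lay near 6, against 2.83%, and the median H3K27ac percentile was 98.4. Among intervals overlapping the gene spans, the best ranks were 3 at the potassium channel subunit gene Abcc8 and 15 at the amylin gene Iapp. G6pc2 followed at 38 and the zinc transporter gene Slc30a8 at 52. Intervals of the window off the span were not counted in these ranks. BMAL1 peaks lay near 6 of the 20 and 5 of the 12, against 21.3% of protein-coding genes, and CLOCK peaks near 3 and 2, against 13.1%. The CLOCK counts and the 6 of 20 lie near these shares.

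The 50 kb limit left peaks of the same kind outside. Between 50 and 60 kb from the genes lay 5 PDX1 peaks, 4 H3K4me2 and 6 H3K27ac intervals, and 0 of BMAL1, CLOCK or H2A.Z. The farthest PDX1 peak inside the limit was the 30.2-tag peak 40576 bp from Pax6, and the nearest outside had 11.2 tags, 51015 bp from the same gene.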

How the data were processed

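Alignment was done with Bowtie 1.1.1 to mm10 and peaks were called per library with HOMER findPeaks, per the submitters' processing notes and the file headers; no HOMER version is stated there. The tag threshold of a factor peak was 13, per the file headers. Such a peak also had to exceed both the input and its surrounding 10 kb by 4 times and pass an FDR of 0.001. A mark interval had to exceed the input by 4 times. The headers name one pooled input for the BMAL1, CLOCK and H2A.Z lists and a different one for the remaining lists. The title of the first of these inputs also names H2A.Z. The label of the H2A.Z library names the input of PDX1 instead, in conflict with the header of its calls and with that title. The deposited normalized tag count is a signal scaled to 10000000 tags per library, and the deposited fold over input is a ratio. The deposited score is close to a tag number for factors, but for the stitched mark intervals it is low even at the strongest ones, so intervals were ranked by normalized tag count. An absent peak was not detectable at this depth.

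Gene spans came from RefSeq (GRCm38.p6, all 7 genes matched), without exons, so introns and UTRs were not determined; strand and starts came from its promoter table. A shared base (1 bp) counted as overlap. The genes, lists and rules were chosen with earlier results of these data known. At each gene the peak with most tags per list was named, with all BMAL1 and CLOCK peaks, the 5 most similar genes and list genes with most H3K27ac. Overlap and window counts were tested on simulated data. The scripts ran in Python 3.11.15 with pandas 2.3.3, NumPy 2.4.6, statsmodels 0.14.6 (Wilson intervals) and matplotlib 3.10.9. Some genes of the gene lists are not reported here and were left out of their counts.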

Additional observations from a re-analysis of the deposited data

How the results depend on the processing

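The number of genes with a peak stayed within 1.5 times the reported count for PDX1, H3K4me2, H3K27ac and H2A.Z under every alternative run; the CLOCK counts of 0 could not change under them. With a 10 kb window the peaks near the genes were 12 for PDX1, 23 for H3K4me2, 16 for H3K27ac, 6 for H2A.Z and 0 for BMAL1, so that 0 genes had BMAL1, and the share of PDX1 peaks in H3K27ac was 75% (9 of 12). With the upper 50% of each list by score there were 14 PDX1, 30 H3K4me2, 14 H3K27ac and 7 H2A.Z peaks. With the upper 50% by normalized tag count, an alternative chosen after seeing the data, there were 14, 30, 19 and 5. Counting only peaks whose nearest gene was one of the 7 left 30 H3K4me2 and 17 H3K27ac intervals. Each of these alternatives keeps fewer peaks by construction. The PDX1 share in H3K27ac was 42.9% to 71.4% in the upper 50% of the lists by either measure, and 54.2% under the other overlap rules. Ranking H3K27ac by the deposited score, also chosen later, put the Pdx1 and Nkx6-1 intervals at 18721, Isl1 at 15150, Nkx2-2 at 24198, Mafa at 5009 and Pax6 at 4178, with Mnx1 at 5686 ahead of 4 of the other 6. No paired analysis was possible because each target had 1 library, which also left no replicate to omit. Depth differed between libraries, so the peak numbers of different targets cannot be compared.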
